A study of Brassica napus with 33 samples.

Results

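Ovules of the maternal Brassica napus inbred line Express617 were compared 30 days after pollination (OS30) according to the father that supplied the pollen. F0 ovules came from Express617 flowers crossed with pollen of the paternal inbred line G3D001, and Express617 ovules came from selfed flowers of the same line, so both groups grew on Express617 mothers. The comparison rests on 6 of the 33 small RNA libraries of the study, with 3 F0 and 3 Express617 libraries, and the 3 libraries of selfed G3D001 ovules of the same age served as the paternal level. All 3 genotypes were untreated and field grown, Express617 being a winter-type and G3D001 a semi-winter, semi-synthetic oilseed rape, and each biological replicate pooled pollinated ovules from several plants, so p-values measure the spread between these pools. The counts refer to 91060 small RNA clusters with a position on the Express617 assembly and to 10201 sequence entries, short RNA sequences listed in place of a position. Libraries of 15-day ovules (OS15) of the same crosses, of leaves, and of selfed F1 plants were read only where they lend a value that the 30-day comparison did not use.

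Most small RNAs of plant seeds are small interfering RNAs (siRNAs) of 24 bases. They are made from transposons, repeats and gene flanks by RNA polymerase IV, RNA-dependent RNA polymerase and a Dicer-like enzyme, and they are loaded onto Argonaute proteins that guide DNA methylation to matching loci. In Arabidopsis the Argonaute proteins of this pathway favour siRNAs that begin with adenosine. A pollinated ovule joins a seed coat that is purely maternal with an endosperm and an embryo that carry both parental genomes, and in Brassica and rice a small set of highly expressed siRNA loci in seeds is known to be maternal in origin. Bulk ovules mix these tissues, so a smaller share of a tissue and less RNA per cell cannot be told apart in any value below.

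The 6 libraries held between 17185924 and 21816556 counts on clusters, and the median cluster carried 48 to 59 counts. The stage of F0 and Express617 was close. Clusters that fell at least 8-fold from OS15 to OS30 in selfed F1 ovules took 35.4 to 36.8% of the counts in Express617 and 36.4 to 37.9% in F0, against 70.5 to 71.7% in G3D001. The scores over the same lists, as mean log2(CPM + 1) with CPM for counts per 1000000 counts on clusters, lay between 1.34 and 1.35 in Express617 and between 1.27 and 1.36 in F0 for the 6698 clusters that rise with age, and between 0.93 and 0.98 in G3D001. Clusters that mark leaves took 6.54 to 9.26% of the counts in Express617, 7.28 to 9.15% in F0 and at least 79.9% in leaf libraries. The G3D001 ovules differed from both other groups in this stage measure as well as in genotype, and stage and genotype cannot be told apart in any direction drawn from G3D001 at OS30. F0 replicate 1 stood apart from its group, correlating over clusters as closely with Express617 replicate 1 (r = 0.934) as with F0 replicates 2 and 3 (r = 0.939 and 0.935), while the latter pair reached 0.977.

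Small RNAs that were present in F0 and missing from every Express617 library were read first, since they need no level in the mother. They were sought among the sequence entries, which have no position on the maternal assembly. Such entries may be weighted towards sequences that Express617 lacks. The direction of the calls below is therefore not independent of how the entries arose. Of 9295 sequence entries with a count in the 9 libraries, 387 were called higher in F0 than in Express617 (4.16%) and 1, of 22 bases, was called lower (0.0108%), by edgeR's quasi-likelihood test with Benjamini-Hochberg adjustment at an adjusted p under 0.05. Of the 387 entries, 371 had no count in the 3 Express617 ovule libraries and 351 had none in any of the 9 Express617 libraries of ovules and leaves. G3D001 was called higher than Express617 for 385 of the 387, where 46.9% of all tested entries were. Entries called higher in G3D001 with at most 3 counts in Express617 numbered 2998 (32.3% of all tested). Only 379 of these 2998 were called higher in F0. The share of all tested entries without a count in Express617 is not given here. Of the 387, 266 had 24 bases, the size of most siRNAs. They were 9.80% of the 2715 tested entries of that length, against 18 of the 1645 with 21 bases (1.09%) and at most 4.59% at any other length. Among the 266, 239 began with adenosine (89.8%), compared with 52.8% of the 2449 other entries with 24 bases, and with 54.2% of the 1825 among these that were called higher in G3D001. The 8 called 24-base entries most abundant in F0 without a count in any Express617 library are shown because they carry this pattern, with the first base in capitals. They were chosen after their values were seen.
entry a: Acacguggacucuguaaaccaagg
entry b: Agggauuagucugggcuuaccacu
entry c: Auuccggcguaguuauccaaacua
entry d: Aauuuccgagugguaggugcaacc
entry e: Aaggauuuuguggggaccuacaca
entry f: Auucggagaucugagguucaaauc
entry g: Acauggugacguggcucuuuaagg
entry h: Aauccggaucgucacauaucgugg

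All 8 sequences began with adenosine, and none shared a stretch of 18 bases with another of the 8. The 8 are not typical in this, since 116 of the 351 called entries without a count in any Express617 library shared such a stretch with another. The called entries are therefore not all independent sequences, which limits the shares by length and first base above. The overlap within the 266 entries of 24 bases was not counted. Entry a was counted 1184, 1296 and 1297 times in the F0 libraries and 311, 403 and 562 times in G3D001, and it had no count in Express617. It was therefore at least 1059-fold higher in F0 than the limit that 3 counts over the Express617 group allow (adjusted p = 0.00194, edgeR). Its order against G3D001 depended on the scale. Raw counts were higher in F0, but on the trimmed-mean scale entry a held 37.55 ± 2.57 CPM in F0 and 51.78 ± 18.04 CPM in G3D001 (SD, n = 3). On that scale the F0 mean lay below the G3D001 mean for some of the 8 entries and above it for others. At OS15 the same sequence had 0, 1 and 0 counts in F0, although 235, 101 and 251 counts were found in G3D001 ovules of that age. Entry b had 480, 611 and 620 counts in F0, and entry c had 510, 467 and 436. Both were near 0 in F0 at OS15, where entry b had 0, 0 and 3 counts and entry c had 5, 0 and 0. Entry g was scarce in the father, with 437, 199 and 237 counts in F0 against 17, 20 and 14 in G3D001, or 8.63 ± 3.64 CPM (trimmed-mean scale, TMM; SD, n = 3) against 2.15 ± 1.01 CPM. The least abundant of the 8, entry h, was counted 255, 285 and 247 times in F0 and was at least 221-fold above the Express617 limit.

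The levels were also read in a set of sequences chosen without any ovule library. Entries without a count in the 3 Express617 leaf libraries and with at least 10 counts in each of the 3 G3D001 leaf libraries numbered 269, of which 160 had 24 bases. This set was defined after the ovule values were known, 174 of its members belong to the 351 entries above, and 106 share a stretch of 18 bases with another member. Its summed counts were 2 to 5 in the Express617 libraries at OS30 and 22011 to 22195 in the F0 libraries. In CPM on the scale of total counts, F0 reached 1037 ± 19.5 (SD, n = 3) at OS30 and 25.5 ± 4.98 at OS15, a ratio of 40.6. Every F0 library at OS30 lay above every F0 library at OS15, and the exact two-sided permutation test gave p = 0.1, the smallest value that 3 against 3 libraries can reach (0.188 after Benjamini-Hochberg adjustment over the 32 exact tests made). Selfed F1 ovules, whose mothers carry G3D001 alleles, held 278 ± 13.4 CPM at OS15 and 1348 ± 72.0 CPM at OS30. F0 lay below F1 by a factor of 10.9 at OS15 and at 0.769 of F1 at OS30, with no overlap between libraries at either age (p = 0.1 in both exact tests). G3D001 ovules held 616 ± 29.7 CPM at OS15 and 692 ± 141 CPM at OS30, so that F0 at OS30 stood at 1.498 times the paternal level, again without overlap (exact p = 0.1). This order is limited to the total-count scale, the only scale on which the set was summed. In the edgeR fit on the trimmed-mean scale, 128 of the 387 entries above were called lower in F0 than in G3D001. Of the same 387, 19 were called higher than in G3D001 and 240 were not called. The shares over all tested entries are not given for this contrast, so these counts cannot be set against a background. Of the 269 entries, 183 were called higher in F0 than in Express617 at OS30 and 15 at OS15, where 0.208% of all entries were called higher. In this set the share called at OS30 was 66.9% for 24-base entries and 69.7% for the others.

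**Figure D1:**
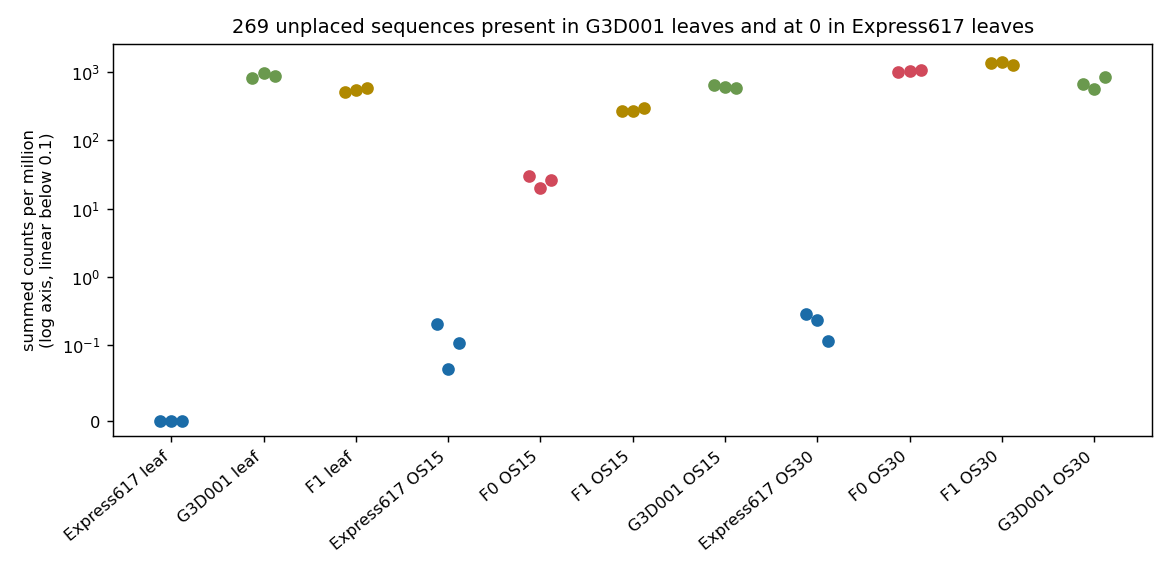
Summed CPM (total-count scale) of the 269 unplaced sequences chosen in leaves, on a log axis that is linear below 0.1, with one point for each library of each genotype and tissue. The F0 libraries stand near 25.5 at OS15 and near 1037 at OS30, whereas all Express617 libraries stay below 0.3.

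Among clusters with a position, F0 parted from the maternal level at 4172 of the 91054 clusters with a count (4.58%), of which 2514 were called higher (2.76%) and 1658 lower (1.82%). An unadjusted p under 0.05 was found for 16223 clusters. Increases were larger than decreases. Among the higher clusters 2192 changed at least 2-fold, 856 at least 4-fold and 472 at least 8-fold, while among the lower clusters these numbers were 1203, 79 and 5, and the median changes were 1.58 and 1.14 on the log2 scale. All 3 F0 libraries lay above all 3 Express617 libraries in 2439 of the higher clusters, a separation shown by 12.3% of all tested clusters. They lay below in 1655 of the lower clusters, against 14.3% of all. Lower clusters tended to be long, with a median length of 1046.5 bp, compared with 808.5 bp for higher clusters and 681 bp for clusters not called. They were also deeper, with a median of 86.5 counts averaged over the 6 libraries, against 55.6 for higher clusters and 53.7 for clusters not called. The part of this depth in the difference in length was not tested. Together the higher clusters took 2.90 to 3.47% of all counts in Express617 and 4.81, 6.52 and 7.26% in F0, the lowest value belonging to F0 replicate 1.

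The number of called clusters depended on single libraries. Without F0 replicate 1 it rose to 6727, without either of the other F0 libraries it was 1632 or 1723, and without one Express617 library it was between 1482 and 1727. A fit of the 6 F0 and Express617 libraries alone called 7459 clusters, and 9040 once the shared replicate numbers were added as a block. DESeq2 called 2866 clusters higher and 2977 lower, so that 49.1% of its calls were increases in place of 60.3%. Decreases numbered 2819 and 2717 without G3D001 replicates 2 and 3.

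In most clusters that left the maternal level, G3D001 lay on the same side. It was called on the same side of Express617 as F0 in 3582 of the 4172 clusters (85.9%), made up of 2074 of the higher and 1508 of the lower ones, whereas 29.7% of all tested clusters were called higher in G3D001 and 26.7% lower. The paternal level lay on the opposite side in 37 clusters, and the parents were not called apart in 553. Both contrasts share the Express617 libraries, so these counts are not independent of each other. The scale of G3D001 also entered the count for increases. Its trimmed-mean factors were 0.37 to 0.42 against 1.54 to 1.64 in the other groups, and scaling by total counts instead moved the median G3D001 difference over all clusters to -2.02 on the log2 scale. On that scale 804 of 2173 higher clusters lay on the paternal side, 579 lay opposite, and 1886 of 1895 lower clusters lay on the paternal side (99.5%), while 5.68% of all clusters were called higher and 78.0% lower in G3D001.

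Relative to both parents, 838 higher and 1036 lower clusters fell between the parental levels, being called apart from each. Over all clusters F0 was called higher than G3D001 in 24.5% and lower in 25.7%. Another 1184 higher and 461 lower clusters on the paternal side were not called against G3D001. The counts of these classes and the positions below were read on the trimmed-mean scale and not repeated on total counts. The median F0 cluster on the paternal side stood at 0.60 of the distance from Express617 to G3D001 for increases and at 0.65 for decreases. These clusters were selected for a called difference between F0 and Express617 in the same libraries, and the median position over all tested clusters was 0.12. In the class called higher on the paternal side the median level was 0.60 to 0.66 CPM in Express617, 2.08, 2.48 and 2.54 CPM in F0 and 3.63 to 4.37 CPM in G3D001. The class called lower ran the other way, with 4.02 to 4.30 CPM in Express617, 1.68 to 1.90 CPM in F0 and 0.41 to 0.51 CPM in G3D001. Among the decreases, 134 of the 1658 lower clusters had no count and 325 had at most 3 counts in the 3 G3D001 libraries together. In the reverse direction, 51 of the 2514 higher clusters had no count in Express617.

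**Figure D2:**
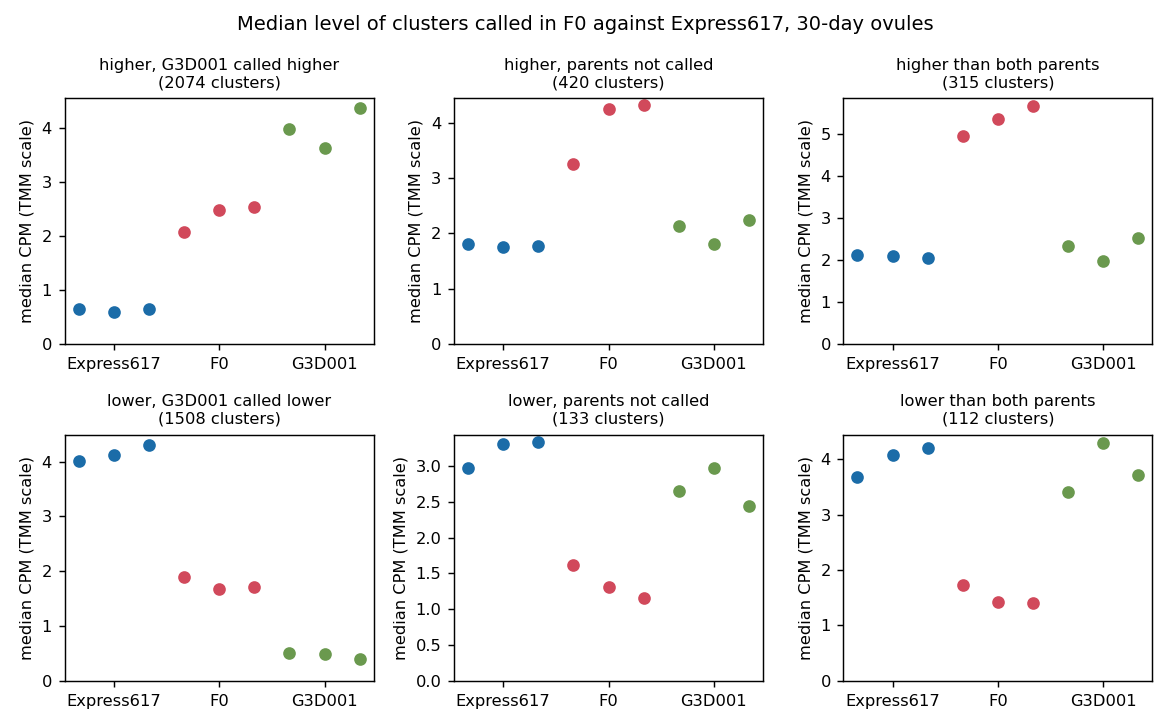
Median CPM (TMM scale) of the clusters in 6 classes called in F0 against Express617, with one point for each of the 9 libraries of 30-day ovules and linear axes that start at 0. In the class higher on the paternal side F0 runs from 2.08 to 2.54 between Express617 at 0.60 to 0.66 and G3D001 at 3.63 to 4.37, and in the classes beyond both parents the F0 points lie outside the points of either parent.

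The 6 increases on the paternal side with the smallest adjusted p were at loci with much lower levels in the mother than in the father. Cluster_4688, a locus of 5280 bp on A02 (positions 12509688 to 12514967 of the Express617 assembly), had 106, 78 and 79 counts in Express617, 17238, 23487 and 25711 in F0, and 28915 to 63857 in G3D001. Its level in F0 was 661 ± 137 CPM (SD, n = 3) against 3.12 ± 0.62 CPM in Express617, a log2 difference of 7.73 ± 0.26 (SE; adjusted p = 3.8e-09, edgeR). F0 nevertheless reached 0.12 of the distance to G3D001. At Cluster_54892 on C04 (54156266 to 54157828) the F0 libraries held 55.2, 50.6 and 53.3 CPM, compared with 1.302 to 2.15 CPM in Express617 and 471 to 494 CPM in G3D001. Cluster_73908 on C08, Cluster_78776 on C09, and Cluster_89062 and Cluster_88682 on unplaced scaffolds showed the same order of groups, with log2 differences between 3.14 and 5.604 and no overlap between F0 and Express617. All 6 clusters were also called higher in G3D001 than in Express617 in leaves, where the differences ran from 2.29 to 11.63 on the log2 scale. The paternal side of these 6 held under total-count scaling as well.

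The named decreases were smaller than the named increases. Cluster_36812, a locus of 184 bp on C02 (2588088 to 2588271), gave 305, 345 and 288 counts in Express617, 78, 61 and 61 in F0 and no count in any of the 3 G3D001 libraries. F0 therefore lay at 1.98 ± 0.26 CPM against 11.1 ± 1.15 CPM in the mother, a log2 difference of -2.48 ± 0.22 (SE; adjusted p = 4.8e-05, edgeR). Cluster_44432 on C03 (24190095 to 24190846) fell from 13.3 to 18.3 CPM in Express617 to 1.499 to 2.37 CPM in F0, with 0.51 to 1.16 CPM in G3D001. At Cluster_79425 on C09, a locus of 4454 bp, 18.1 to 19.3 CPM in Express617 stood against 2.81 to 4.04 CPM in F0 and 2.13 to 3.97 CPM in G3D001. Cluster_85067 and Cluster_78812 showed the same order between mother and hybrid, with log2 differences of -2.53 and -2.94. In these last 3 loci F0 and G3D001 were not called apart on the trimmed-mean scale, and their libraries overlapped. On total counts G3D001 lay at -4.72, -4.51 and -4.43 from Express617 at Cluster_79425, Cluster_85067 and Cluster_78812. F0 lay between the parents on that scale, at -2.50, -2.58 and -2.99.

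**Figure D3:**
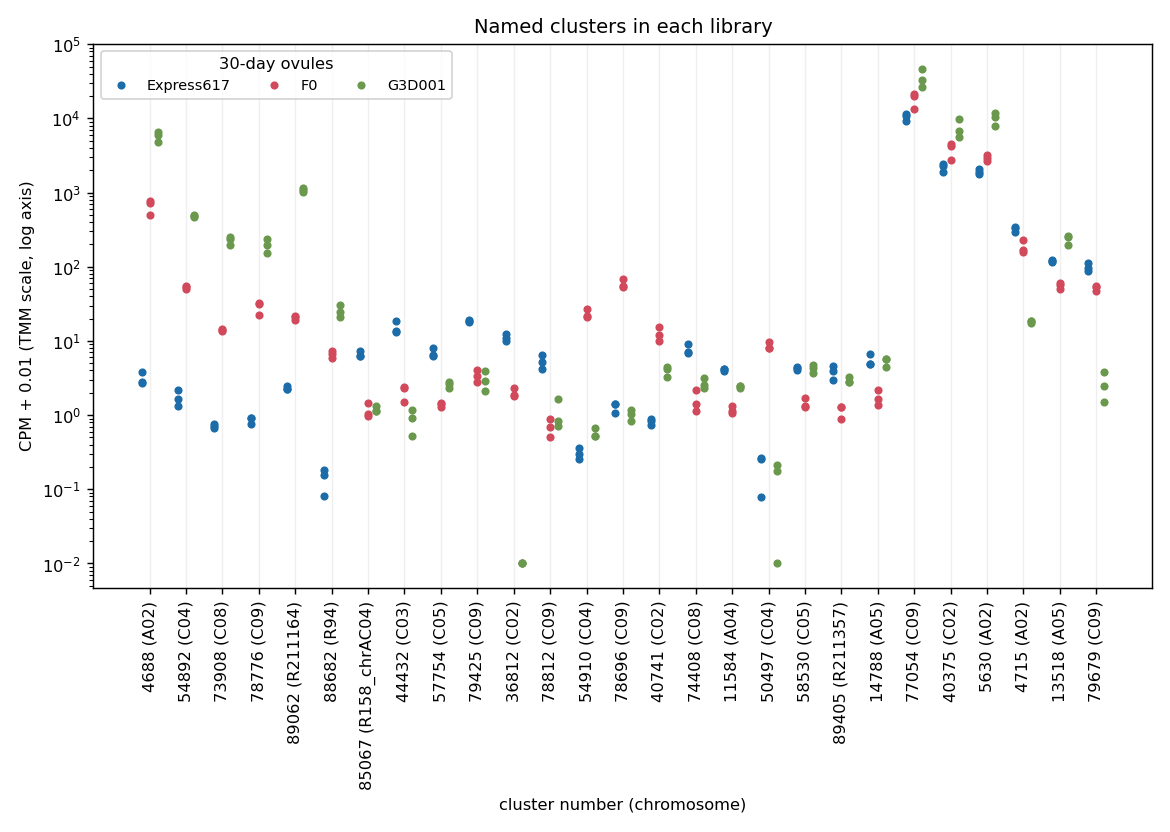
CPM (TMM scale) plus 0.01 on a log axis for each named cluster in the 3 Express617, 3 F0 and 3 G3D001 libraries of 30-day ovules, one point per library. F0 lies between the parents at the first 6 clusters, from Cluster_4688 to Cluster_88682, and far above both at Cluster_54910, Cluster_78696 and Cluster_50497.

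A smaller group exceeded both parents. On the trimmed-mean scale F0 was called above both in 315 clusters and below both in 112. These 2 counts were not repeated on total counts, where G3D001 was called lower than Express617 in 1886 of 1895 decreases. The strongest increases above both parents were 3 short loci with at most 41 counts in any parental library. The median cluster carried 48 to 52 counts in the Express617 libraries. Cluster_54910 on C04 (54318503 to 54318837) had 8, 7 and 10 counts in Express617, 5, 4 and 5 in G3D001, and 747, 681 and 923 in F0. Cluster_78696 on C09 (15964739 to 15965000) rose from 29, 39 and 41 counts in Express617 and 10, 7 and 8 in G3D001 to 1833, 1825 and 2278 in F0. Cluster_50497 on C04 (14745439 to 14745622) had 271, 266 and 323 counts in F0 and at most 7 in any parental library. Their log2 differences from Express617 were 6.28 ± 0.26, 5.51 ± 0.25 and 5.46 ± 0.36 (SE), with adjusted p-values of 4.8e-08, 8.0e-08 and 1.5e-06 (edgeR), and neither scaling by total counts nor any library left out removed a call. The parents were not called apart at any of the 3 on the trimmed-mean scale. Selfed F1 ovules, which the comparison did not use, carried the same loci at OS30, with 718 to 1272 counts at Cluster_54910 and 1768 to 3201 at Cluster_78696, and F1 leaves held 134 to 284 and 356 to 748. At OS15 F0 had at most 5 counts at any of the 3. The ratio of counts between Cluster_78696 and Cluster_54910 stayed between 2.44 and 2.68 over the 6 F0 and F1 libraries, and that between Cluster_54910 and Cluster_50497 between 2.48 and 3.12. The 3 loci are uncertain as separate observations, since the counting could split reads among near-identical copies. Cluster_86946, on an unplaced scaffold, was the only other cluster at least 8-fold above both parents, but its F0 counts of 32, 10 and 555 rested on 1 library. It was chosen after its values were seen.

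Further clusters outside the parental range were less extreme. Cluster_40741 on C02 rose to 9.93, 11.99 and 15.4 CPM in F0 against 0.73 to 0.87 CPM in Express617 and 3.26 to 4.47 CPM in G3D001. Among decreases, Cluster_57754 on C05 held 1.29 to 1.46 CPM in F0, 6.23 to 7.97 CPM in Express617 and 2.34 to 2.75 CPM in G3D001. Cluster_74408 on C08 and Cluster_11584 on A04 were also called below both parents, with log2 differences from Express617 of -2.28 and -1.80. Their place below both parents turned with the scaling. On total counts G3D001 lay at -3.45, -3.57 and -2.78 from Express617 at Cluster_57754, Cluster_74408 and Cluster_11584, and F0 lay between the parents at -2.36, -2.32 and -1.84. Where the parents were not called apart, Cluster_58530, Cluster_89405 and Cluster_14788 fell by 1.56 to 1.73 on the log2 scale. On total counts the parents were called apart at all 3, with G3D001 at -2.05, -2.42 and -2.08 and F0 at -1.60, -1.77 and -1.71, on the paternal side. Of the 315 clusters above both parents, 268 were called higher at OS30 than at OS15 in selfed F1 ovules (85.1%) and 6 lower, against 31.1% and 26% of all clusters.

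Among the 3 most abundant called clusters in each direction, the changes were below 2-fold in 5 of the 6, and the calls of these 5 depended on single libraries. The 3 most abundant clusters called higher were Cluster_77054 on C09, Cluster_40375 on C02 and Cluster_5630 on A02. Cluster_77054 held 10729, 9123 and 11522 CPM in Express617 and 13205, 19794 and 21607 CPM in F0, a log2 difference of 0.80 ± 0.20 (adjusted p = 0.0387, edgeR). Its counts were 4.70 to 4.88 times those of Cluster_40375 in all 24 ovule libraries, so both are uncertain as separate loci, since the counting could split reads between copies. Cluster_40375 lost its call with the replicate block (adjusted p = 0.0657), and all 3 lost it when any single Express617 library was left out. Over all alternatives their highest adjusted p was 0.224 (edgeR or DESeq2). Of the 3 most abundant clusters called lower, Cluster_4715 on A02 and Cluster_79679 on C09 lay between the parents, at 158 to 229 CPM and 46.6 to 55.7 CPM in F0. Cluster_79679 was not called with the block (adjusted p = 0.0601), and both lost their calls without any single Express617 library. Their highest adjusted p over all alternatives was 0.219 (edgeR or DESeq2). Cluster_13518 on A05 moved away from the father, with 116 to 123 CPM in Express617, 50.6 to 59.7 CPM in F0 and 196 to 261 CPM in G3D001. This decrease of 1.11 ± 0.19 on the log2 scale kept its call in every alternative run, whereas the G3D001 level turned to the lower side of Express617 under total-count scaling (log2 difference -1.05).

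Called clusters were spread over all chromosomes, with A02 and C02 standing out. These chromosomes were examined because duplication of the whole of A02 and loss of the whole of C02 have been described for G3D001. Cluster_40741 and Cluster_40375, placed on C02, nevertheless held counts in every G3D001 library at OS30, and their placement was not tested. Of 4013 tested clusters on A02, 365 were called higher in F0 (9.10%), compared with 1.29 to 3.57% on the other chromosomes and scaffolds. Of 5031 on C02, 226 were called lower (4.49%), against 1.01 to 3.03% elsewhere. The median log2 ratio to Express617 over A02, taken relative to all clusters, was 0.20, 0.33 and 0.34 in the F0 libraries (0.29 ± 0.07, SD, n = 3) and 0.52, 0.32 and 0.66 in G3D001. Over C02 it was -0.24, -0.42 and -0.38 in F0 (-0.34 ± 0.10) and -0.86, -0.45 and -1.49 in G3D001. F0 and Express617 libraries did not overlap on either chromosome (exact two-sided permutation p = 0.1, the smallest possible), which also held for A04, A05, A10, C05 and C08, so for 7 of 20 when the unplaced scaffolds are counted as one more chromosome. The differences of the other chromosomes ran from -0.0971 to 0.0487. At OS15 the F0 level ranged from 0.0133 to 0.0366 on A02 and from -0.0164 to 0.0445 on C02, overlapping the Express617 libraries on both chromosomes, with 729 and 752 clusters deep enough for the measure.

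**Figure D4:**
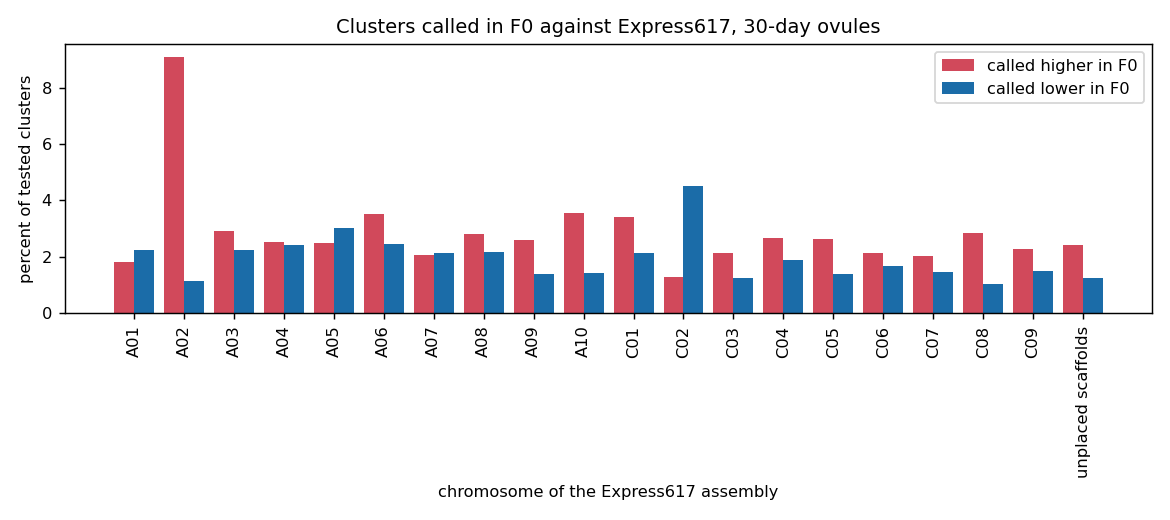
Percent of tested clusters called higher (red) or lower (blue) in F0 than in Express617 at OS30, by chromosome of the Express617 assembly, with unplaced scaffolds last. A02 shows 9.10% higher and C02 4.49% lower, and the other bars stay at or below 3.57%.

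The calls on both chromosomes ran along most of their length. All 30 windows of 1 Mb on A02 with at least 20 tested clusters held a cluster called higher, and 56 of 62 windows on C02 held one called lower, while 97 of 768 windows over the genome had no increase and 202 no decrease. The densest window of increases lay on A02 between positions 26000001 and 27000000 (23 of 140 clusters, 16.4%). Outside C02 the window with most decreases was on C04 between 12000001 and 13000000, where 12 of 85 clusters were called lower (14.1%). Without A02 and C02 the comparison still called 2063 clusters higher and 1424 lower, with 85.4% on the paternal side, so most calls lay on other chromosomes.

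Few clusters parted from the mother at the earlier stage. At OS15, F0 and Express617 were called apart at 12 of 90944 clusters (0.0132%), 7 higher (0.0077%) and 5 lower (0.0055%), with 3674 at an unadjusted p under 0.05 and 18 called by DESeq2. With the replicate numbers as a block there were 66, and leaving out single libraries gave 2 to 176, the highest without G3D001 replicate 2. The depth per cluster was lower at this age, with a median of 5 to 6 counts, and its part in the difference was not tested. Clusters called higher at OS30 had a median log2 difference of 0.00 at OS15, with 1252 above 0 and 1162 below, and those called lower had -0.02. Of the higher clusters 4 were also called higher at OS15, namely Cluster_4688, Cluster_22660, Cluster_47690 and Cluster_56513, of which the last 3 were chosen after their values were seen. Of the lower clusters 0 were called lower at OS15 by edgeR. The difference between the stages was itself called for 244 of 91046 clusters (0.268%), and for 541 with the replicate block. The effect was called more positive at OS30 in 150 of the clusters higher at OS30 (5.97% of them, against 0.18% of all tested clusters) and more negative in 47 of those lower (2.83%, against 0.0879% of all), a choice that shares the OS30 libraries with the test. The count of 244 ranged from 78 without Express617 OS15 replicate 3 to 893 without F0 OS30 replicate 1. Among the clusters named by rule, Cluster_4688 alone was called at OS15 (5.51 against 0.43 CPM, log2 difference 3.68, adjusted p = 2.0e-10).

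The parental difference at these clusters was also read in libraries that the comparison did not use. Of the clusters higher in F0 at OS30, 980 were called higher in G3D001 than in Express617 at OS15 (39.1%) and 51 lower, against 7.97% and 10.6% of all clusters. In leaves the same held for 1161 (46.4%) and 31, against 6.02% and 10.5%. Clusters lower in F0 mirrored this, with 637 called lower in G3D001 at OS15 (38.5%) and 713 in leaves (43.3%). At OS15 the parents were closer in the stage measure than at OS30, since clusters that fall with age took 82.1 to 83.8% of the counts in G3D001 and 80.7 to 81.7% in Express617.

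Lists taken from the parents in other tissues placed F0 between them at OS30, and the maternal leaf list placed it nearer the mother at OS15. For 1366 clusters at least 8-fold higher in G3D001 than in Express617 leaves, the median position of the F0 libraries at OS30 was 0.17, 0.36 and 0.36 on a scale from 0 at the Express617 mean to 1 at the G3D001 mean. For 4523 clusters at least 8-fold higher in Express617 leaves it was 0.37, 0.50 and 0.48. F0 replicate 1 lay closest to the mother in both lists. At OS15 the corresponding positions were 0 in all 3 libraries and 0.03 to 0.09. The paternal list lay near the floor at that age, so its position of 0 cannot place F0. Its median level was 0.11 to 0.12 CPM in F0, 0.06 to 0.11 CPM in Express617 and 0.46 to 0.66 CPM in G3D001. Lists chosen from the parents at OS15 gave 0.02, 0.04 and 0.05 for 2268 paternal clusters and 0.35, 0.41 and 0.40 for 3797 maternal ones, so the position for paternal clusters depended on the libraries that chose the list. F0 and Express617 libraries did not overlap at OS30 in any of the 4 lists (exact two-sided permutation p = 0.1, the smallest possible), and the 2 tests at OS15 gave p = 1 and p = 0.3. Of the paternal leaf clusters 605 were called higher in F0 at OS30 (44.3%, against 2.76% of all tested clusters) and 5 lower. Of the maternal leaf clusters 544 were called lower (12.03%, against 1.82% of all) and 9 higher.

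**Figure D5:**
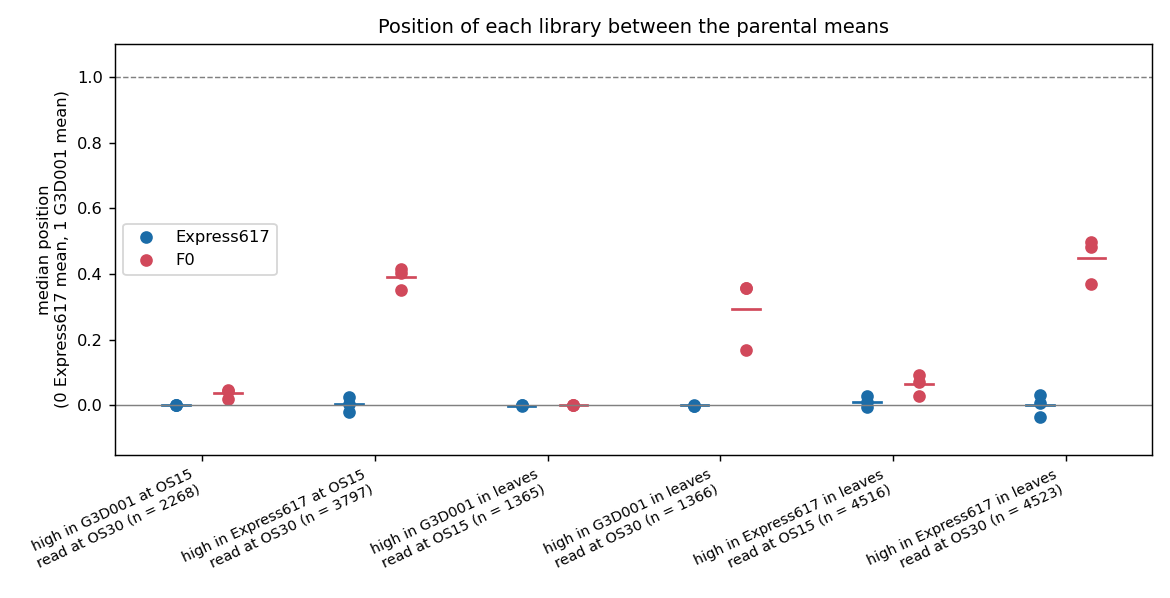
Median position of each Express617 and F0 library between the parental means, where 0 is the Express617 and 1 the G3D001 mean, for 4 lists of clusters chosen in other libraries, with horizontal bars at the group means. F0 stands at 0.17 to 0.50 at OS30 for the lists chosen in leaves and at 0 to 0.09 at OS15 for the same lists.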

How the data were processed

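The authors removed reads shorter than 18 bases with seqtk, and clustered and counted the rest on the Express617 assembly with ShortStack. The deposited table holds raw counts per cluster or sequence entry. The main test was the edgeR quasi-likelihood F-test (version 4.0.16, R 4.3.3), scaled by trimmed mean of M values (TMM), without a block and fitted on the 9 OS30 libraries of Express617, G3D001 and F0. Sequence entries used the library sizes of the clusters. CPM are TMM-scaled unless stated otherwise. Named clusters were the 6 (paternal side) or 3 (other classes) with the smallest adjusted p in each direction and no overlap between groups, at least 100 kb apart, plus the 3 most abundant on chromosomes in each direction, 27 in all. Members and lists were chosen with earlier results of these data known. In simulated OS30 counts for 91054 clusters, 92 of 100 changes of 4-fold and 16 of 100 of 2-fold were recovered, with 8 false calls. The simulation drew all 9 libraries from the Express617 means with independent noise and changed F0 only. It held no parental difference and no replicate pairing, so these rates cannot be carried over to the real fit.

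Each F0 library matched the Express617 library of its own replicate number best at both ages. Deviations of these pairs correlated at 0.116, 0.130 and 0.180 at OS30 and at 0.302, 0.151 and 0.204 at OS15. Same-numbered G3D001 libraries at OS30 gave 0.130, -0.023 and 0.026 with Express617, and -0.010, -0.175 and 0.170 with F0. Some of these were as large as the correlations between F0 and Express617. No 2 replicates agreed within counting noise. Alternatives were DESeq2 1.42.0, RLE factors, total-count scaling, a filter of 10 counts in 3 libraries, the replicate block, leaving out A02 and C02, and leaving out each library. Gene annotation and miRNA names were not used here. The rule for naming miRNA entries could therefore not be applied.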

Additional observations from a re-analysis of the deposited data

Results flagged for a closer look

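The F0 effect differed between OS30 and OS15 by an interaction test (edgeR, adjusted p under 0.05) in 13 of the 27 named clusters, all of them chosen for their OS30 effect. The difference between the effects, OS30 minus OS15 on the log2 scale, was 4.003 at Cluster_4688, 3.06 at Cluster_54892, 4.70 at Cluster_78776, 2.57 at Cluster_89062 and 6.87 at Cluster_88682. It was 5.58 at Cluster_78696. The value of 9.29 at Cluster_40741 depends on the prior count and is no bound, since F0 had no count there at OS15. Negative differences were -2.82 at Cluster_44432, -2.90 at Cluster_79425, -3.07 at Cluster_36812, -2.49 at Cluster_74408, -0.9997 at Cluster_4715 and -1.63 at Cluster_13518. The adjusted p-values ran from 1.3e-05 at Cluster_4688 to 0.0467 at Cluster_40741. At OS15 the median cluster had 5 to 6 counts, against 48 to 59 at OS30, and the part of this depth in the differences was not tested.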

How the results depend on the processing

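Of the 27 named clusters, 22 were called under every alternative run, none reversed, and 5 of the 6 chosen for abundance, 3 in each direction, lost the call under at least 1. The counts of called, higher, lower and paternal-side clusters stayed within 1.5 times under RLE factors, total counts, the count filter, the replicate block (3460 calls), the 2-fold threshold and without A02 and C02. For total counts this hides opposite shifts in the paternal-side count. Higher clusters on that side fell from 2074 to 804 and lower ones rose from 1508 to 1886. The paternal-side share of all calls fell from 85.9 to 66.1%. DESeq2 gave 2977 decreases. Only the 6 F0 and Express617 libraries gave 7459 calls with 3703 decreases, and with the replicate block, an alternative chosen after seeing the data, 9040 calls with 4476 increases and 4564 decreases. Leaving out 1 library gave 1482 to 6727 calls, 1054 to 4124 increases, 366 to 2819 decreases and 1376 to 5297 clusters on the paternal side, the last being 78.5 to 93.2% of the calls. At OS15 the 12 calls became 2 with the count filter and 66 with the replicate block, and 2 to 176 without 1 library. The 244 stage differences became 541 with the block, 617 with DESeq2 and 78 to 893 without 1 library. Sequence entries ranged from 348 to 457 calls without 1 library, and from 371 with the block to 521 with DESeq2. The paternal position of 0.037 became 0.29 with the leaf list and 0.0080 with a log2 difference of at least 5. The maternal position of 0.39 became 0.35 under total counts and 0.45 with the leaf list. The cause of these shifts was not tested. Among the named clusters the block changed no other call than those of Cluster_40375 and Cluster_79679. The levels of A02 and C02, the stage score and the leaf score moved by less than 1 SD between replicates under every alternative run. Exact tests of 3 against 3 libraries cannot go below p = 0.1.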
